A study of Mus musculus with 16 samples.

Results

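Transcripts of 9 genes that make, carry, sense or degrade retinoic acid were measured in cultured mouse male germline stem cells. The genes were chosen by name, as Rara, Rarb, Rarg, Rxra, Crabp1, Crabp2, Aldh1a2, Cyp26a1 and Cyp26b1, and each had 1 row among the 27128 genes of every table. Crabp1 was the most abundant of them in all 12 libraries, at 161 to 411 TPM. Rara, Rarg, Rxra and Aldh1a2 were present throughout at 7.58 to 43.6 TPM. Rarb and Cyp26b1 were near the limit of detection, and Crabp2 and Cyp26a1 varied widely between cultures.

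Retinoic acid is made from vitamin A in 2 oxidations, and retinaldehyde dehydrogenases such as Aldh1a2 carry out the last of them. It enters the nucleus and binds the retinoic acid receptors Rara, Rarb and Rarg, which act on DNA as partners of retinoid X receptors such as Rxra. Crabp1 and Crabp2 bind it in the cytoplasm, and the cytochromes Cyp26a1 and Cyp26b1 break it down. In the testis it starts the differentiation of spermatogonia and their entry into meiosis, and Stra8 and Kit are the genes most often used to read that response.

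The cells came from B6;CBA-Tg(Pou5f1-EGFP)2Mnn/J mice at postnatal day 5.5, in which GFP reports the Pou5f1 (Oct4) promoter. Oct4-positive, KIT-negative germ cells had been sorted and expanded with GDNF, bFGF and EGF. There were 4 experiments. Feeder removal had cells on mouse embryonic fibroblast (MEF) feeders (day 0) and 4 and 9 days after they were moved to Matrigel, at a density that the labels do not give. In the density experiment Matrigel was coated at 0.1 µg/cm2, which gave a culture labelled epithelial-like, or at 10 µg/cm2, which gave one labelled mesenchymal-like. The GFP experiment had low, mid and high fractions sorted from cultures at 10 µg/cm2. The inhibitor experiment had cells on MEF with DMSO or with 0.5, 1 or 2 µM UNC0638, an inhibitor of the histone methyltransferase G9a, where treatment lasted 48 hours. With a single library in every group there is no replicate check on any difference, no p-value is given, and the intervals cover counting error only. The labels do not say how many animals gave the cells.

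Totals ranged from 4335185 to 12019651 expected counts, and 3 counts, used here as the smallest visible level, were worth 0.238 to 0.724 CPM (CPM being counts scaled to a common library size, here after TMM scaling). All 20 germ-cell markers were above 3 counts in each library, with a sum of 2456 TPM in the mesenchymal-like culture and 3218 to 4367 TPM in the other 11. Somatic markers differed widely. The 20-gene fibroblast list summed to 3943 TPM in the mesenchymal-like culture, 1822 TPM with DMSO and 76.9 to 867 TPM elsewhere. The 13-gene macrophage list summed to 659, 629 and 84.3 TPM over the sorted fractions from GFP-low to GFP-high and to 13.2 to 30.8 TPM in the other 9 libraries. Of 11 Sertoli markers in the tables the sum was 4.21 to 18.8 TPM, with Fshr at 0 counts throughout, and 4 of 7 Leydig markers (Cyp17a1, Hsd3b1, Insl3 and Lhcgr) were at 0 counts in all libraries. The endothelial list (7 genes) summed to 10.3 to 29.0 TPM. In bulk RNA, fewer cells of a type and less RNA per cell cannot be told apart.

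The promoters of Rarb and Cyp26a1 are shown first, because these genes are known direct targets of the receptors and carry the textbook retinoic acid response element, a direct repeat with a 5-base spacer (DR5). Sequences are the 100 bases before the start site of the RefSeq promoter table on the gene's own strand, build GRCm38.p6, with the matched repeat in capitals. That table gives 1 start site for each of the 2 genes, and both lie inside the span that RefSeq gives for the whole gene, printed below. The Rarb stretch is chr14:16575477-16575576 on the minus strand and the Cyp26a1 stretch is chr19:37697708-37697807 on the plus strand.
Rarb: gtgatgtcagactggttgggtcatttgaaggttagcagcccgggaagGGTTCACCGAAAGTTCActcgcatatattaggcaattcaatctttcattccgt
Cyp26a1: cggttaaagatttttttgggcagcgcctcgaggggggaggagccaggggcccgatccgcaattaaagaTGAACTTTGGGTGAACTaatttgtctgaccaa

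The search allowed any pair of the hexamer AGGTCA or its variants (AGTTCA, then GGGTCA, and also GGTTCA) in the same orientation, 5 bases apart, on both strands, in windows from 250 bases before to 50 after each start site. The Rarb match lies at bases -53 to -37 and the Cyp26a1 match, which reads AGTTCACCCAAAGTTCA on the opposite strand, at bases -32 to -16. Windows were at hand for 8 of the 9 genes (Crabp2 had none), and only these 2 genes held a DR5. Among all 32851 windows 32 held it (0.0974%). With a 1-base or 2-base spacer (DR1 or DR2) no window of the 8 genes matched, against 0.222% and 0.268% of all windows. A match is a description of the letters and does not show binding.

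The genes lie on separate chromosomes except for Crabp1 (chr9:54764748-54773110) and Aldh1a2 (chr9:71215789-71296243). Rara spans chr11:98927800-98974942, Rarb chr14:16430839-17082331, Rarg chr15:102234938-102257522 and Rxra chr2:27676445-27763319. Crabp2 spans chr3:87948693-87953372, Cyp26a1 chr19:37697738-37701536 and Cyp26b1 chr6:84571414-84593908. The tables list 1 RefSeq transcript for each gene except Rarg, whose row pools 2, so values for separate receptor isoforms are not given. All 9 genes had whole-number counts in every library, so no fractional sharing of reads between genes is visible for them.

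**Figure D1:**
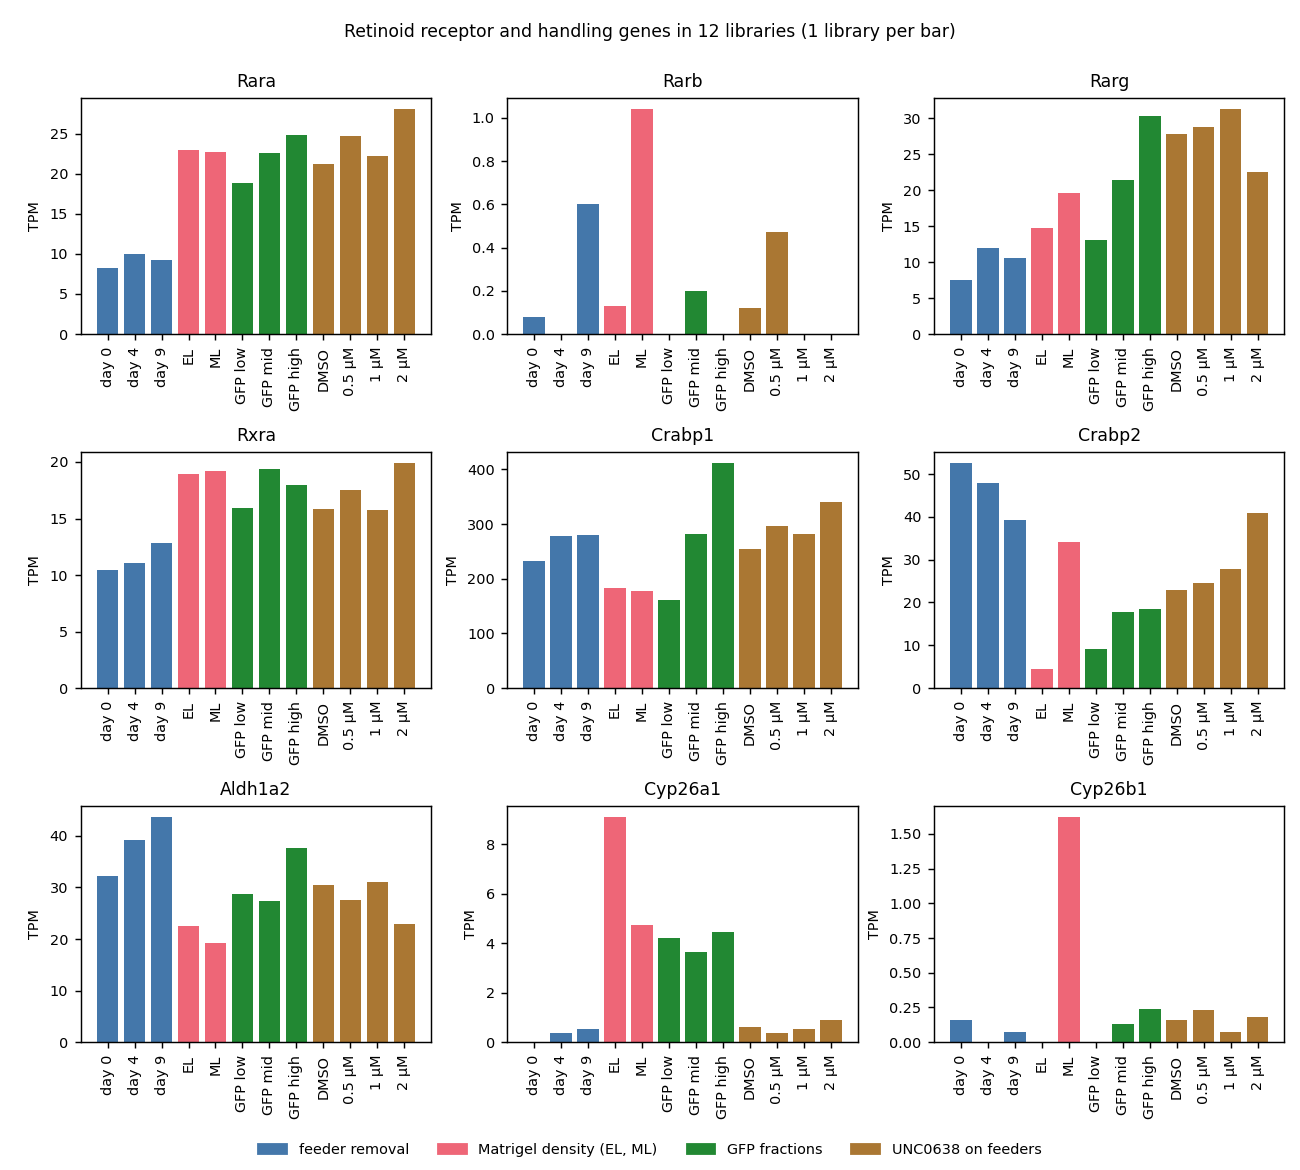
Level of each of the 9 genes in TPM (vertical axes, each from 0 and with its own scale) in the 12 libraries, 1 bar per library, coloured by experiment; EL and ML are the epithelial-like and mesenchymal-like cultures. Crabp1 stands at 161 TPM or above in every library, Cyp26a1 reaches 3.63 TPM only in the density and GFP libraries, and Cyp26b1 exceeds 0.24 TPM only in ML.

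Ordered by the median TPM over the 12 libraries, Crabp1 (279 TPM) came first, followed by Aldh1a2 (29.6), Crabp2 (26.1), Rara (22.4), Rarg (20.5) and Rxra (16.7). Cyp26a1 (0.76), Cyp26b1 (0.145) and Rarb (0.10) came last. The lowest Crabp1 value, 161 TPM, was above the highest value of any other member, 52.5 TPM for Crabp2 at day 0. The ranges of Aldh1a2, Crabp2, Rara, Rarg and Rxra overlapped, so their order was not the same in all libraries. The ranges of Cyp26b1 and Rarb, both from 0 TPM to 1.62 and 1.04 TPM, overlapped as well.

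A gene counted as called where CPM + 1 differed at least 2-fold between the libraries of a pair, a log2 ratio of 1 or more either way. The 7 members other than Rarb and Cyp26b1 had a mean of at least 1 CPM and were among the 14301 genes compared. At day 4 and at day 9 against day 0, none of the 7 was called, where 2.28% (1.25% higher, 1.03% lower) and 2.6% (1.62% higher, 0.979% lower) of all genes were. In the mesenchymal-like against the epithelial-like culture 1 was called, Crabp2, higher, where 12.5% of all genes were called, 10.7% higher and 1.78% lower. In GFP-mid against GFP-low none was called (4.07% of all genes, 3.38% higher and 0.685% lower), and in GFP-high against GFP-low 1 was, Crabp1, higher (9.54% of all genes, 6.94% higher and 2.59% lower). At 0.5, 1 and 2 µM UNC0638 against DMSO none was called, where 3.71%, 6.71% and 7.01% of all genes were. Of all genes 1.58%, 2.59% and 3.42% were higher and 2.13%, 4.12% and 3.59% lower at these doses. Cyp26a1 passed the filter through the density and GFP libraries and had 0 to 6 counts in those of feeder removal and UNC0638, where CPM + 1 could not have been 2-fold lower than at day 0 or with DMSO, so the counts in these 5 comparisons rest on the other 6 members. The 3 inhibitor ratios share the DMSO library, those at days 4 and 9 share day 0, and the 2 GFP ratios share GFP-low.

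The members' median log2 ratio was 0.25 at day 4 and 0.16 at day 9, where that of all genes was 0.03 and 0.02. It was 0.04 in the density comparison (all genes -0.06), and 0.22 and 0.24 in GFP-mid and GFP-high (all genes -0.01 and -0.02). At the 3 doses of UNC0638 it was 0.09, 0.09 and 0.37 (all genes -0.01, -0.002 and -0.02). The medians are over 7 members and include Cyp26a1, which had only 0 to 6 counts in the feeder-removal and UNC0638 libraries.

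**Figure D2:**
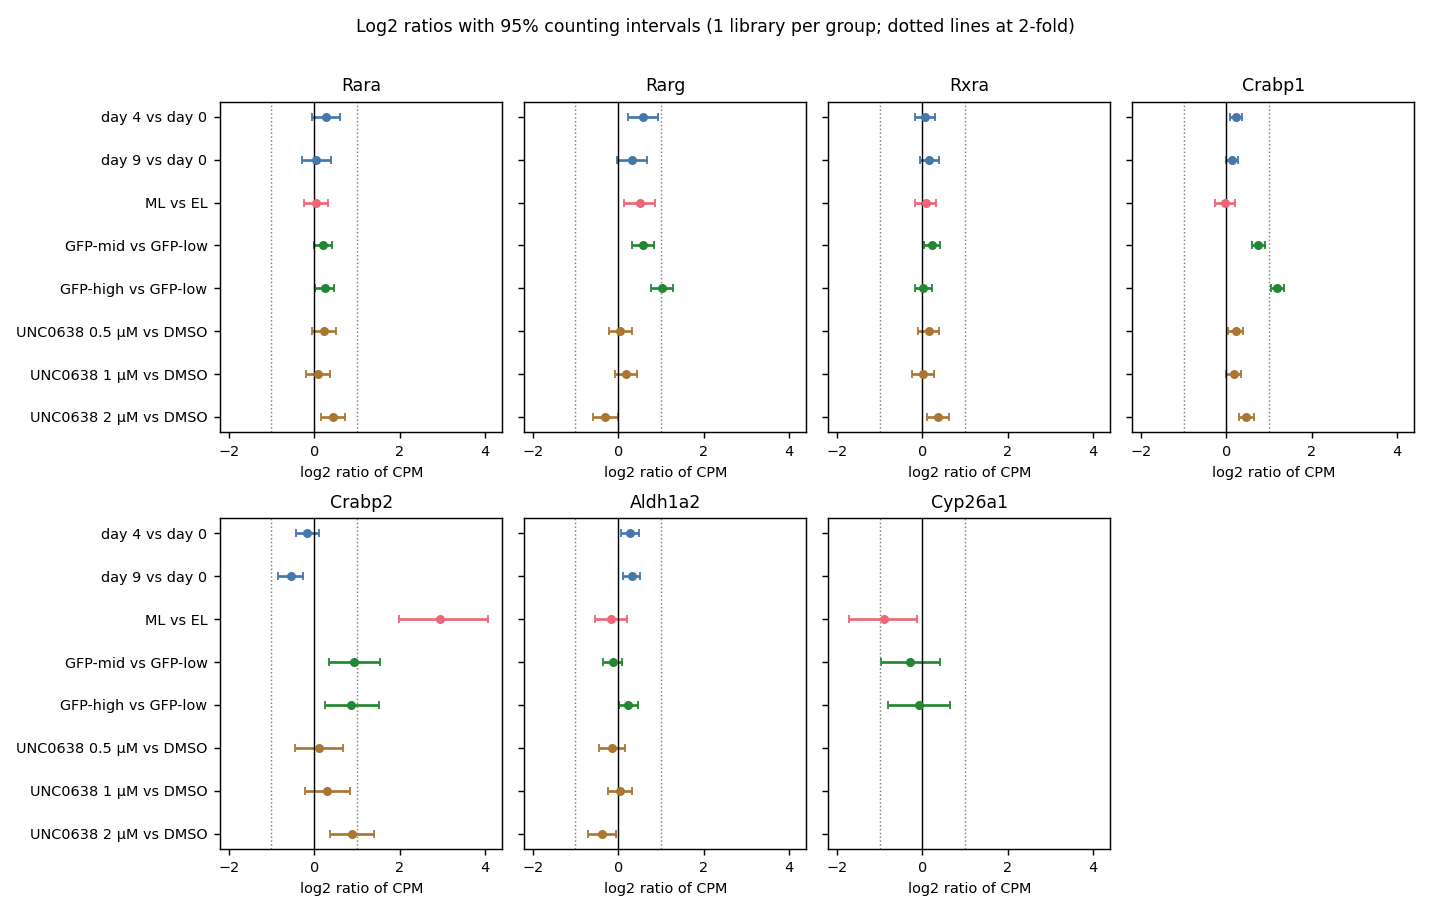
Log2 ratio of CPM without a pseudocount (horizontal axes) for 7 genes in the 8 comparisons (vertical axes), with 95% counting intervals; dotted lines mark 2-fold, and a point is drawn only where both libraries had more than 3 counts. The Crabp2 interval of ML against EL (1.99 to 4.07) and the Crabp1 interval of GFP-high against GFP-low (1.03 to 1.35) lie wholly above 2-fold.

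Rara, the receptor found in most cell types, was at 8.18, 9.94 and 9.25 TPM at days 0, 4 and 9. It was at 22.9 and 22.7 TPM in the epithelial-like and mesenchymal-like cultures and at 18.8, 22.6 and 24.8 TPM over the sorted fractions from GFP-low to GFP-high. With DMSO and 0.5, 1 and 2 µM UNC0638 it was at 21.2, 24.6, 22.2 and 28.0 TPM. The feeder-removal libraries thus lay below the other 9 without overlap, while within each experiment the values were close. Its largest ratio within an experiment was at 2 µM UNC0638 (log2 ratio 0.44, interval 0.17 to 0.72), and the density ratio was 0.04 (-0.24 to 0.33).

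Rarg, the receptor that spermatogonia use in the step to differentiation, was at 7.58, 11.99 and 10.6 TPM at days 0, 4 and 9, the lowest values of the series. It was at 14.7 and 19.7 TPM in the epithelial-like and mesenchymal-like cultures, a log2 ratio of 0.48 (0.13 to 0.87). In the GFP fractions Rarg was at 13.1, 21.4 and 30.3 TPM from low to high, the order of the label, with 179, 422 and 429 counts. The log2 ratio of GFP-high to GFP-low was 0.99 (0.77 to 1.28), just under the threshold, and 1.15 with the deposited TPM. With DMSO and rising UNC0638 it was at 27.9, 28.8, 31.3 and 22.5 TPM, and the 2 µM ratio was -0.29 (-0.60 to -0.002).

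The balance of the 2 abundant receptors therefore differed between libraries. Rarg relative to Rara, as a ratio of TPM, was 0.70 in GFP-low (0.58 to 0.84), 0.94 in GFP-mid (0.83 to 1.07) and 1.22 in GFP-high (1.06 to 1.40), and the intervals of GFP-low and GFP-high did not overlap. It was 0.64 in the epithelial-like culture (0.50 to 0.81) and 0.87 in the mesenchymal-like culture (0.70 to 1.08), where the intervals did overlap. With DMSO it was 1.32 (1.09 to 1.60), with 0.5 and 1 µM UNC0638 1.17 and 1.41, and with 2 µM 0.80 (0.65 to 0.98). The 3 feeder-removal libraries had ratios of 0.93, 1.21 and 1.15 with overlapping intervals.

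**Figure D3:**
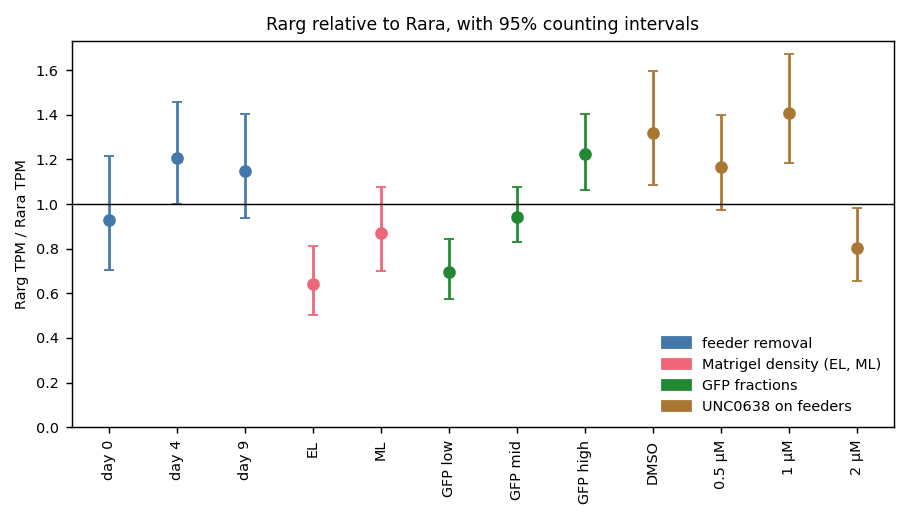
Rarg TPM divided by Rara TPM (vertical axis) in each of the 12 libraries (horizontal axis), with 95% counting intervals and a line at equal levels. The ratio goes from 0.70 in GFP-low to 1.22 in GFP-high, and the 2 µM UNC0638 library (0.80) lies below the DMSO library (1.32).

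Rarb, whose transcription is induced by retinoic acid in many cells, was barely detected. It had 11 counts at day 9 (0.60 TPM), 8 in the mesenchymal-like culture (1.04 TPM), 4 in GFP-mid (0.20 TPM) and 4 with 0.5 µM UNC0638 (0.47 TPM). The other 8 libraries had 0 or 1 count. Of the 12 libraries, 4 were thus above 3 counts. The epithelial-like culture had 1 count, so the density ratio of 8.23-fold has an interval of 0.14 to 8.51 on the log2 scale. Day 0 also had 1 count, and the day 9 ratio of 6.90-fold has an interval of 0.005 to 8.21.

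Rxra, the shared partner of the receptors, varied little within each experiment. It was at 10.5, 11.1 and 12.8 TPM at days 0, 4 and 9, at 18.9 and 19.2 TPM in the density experiment and at 15.9, 19.4 and 18.0 TPM in the GFP fractions. In the inhibitor series it was at 15.8, 17.5, 15.8 and 19.9 TPM. Like Rara, it was lowest in the 3 feeder-removal libraries. The largest of its 8 ratios was 0.37 at 2 µM UNC0638 (0.12 to 0.62).

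Crabp1 and Crabp2 are close relatives, but their levels followed different patterns. Crabp1, which binds retinoic acid in the cytoplasm and is linked to its breakdown, was at 232, 278 and 279 TPM at days 0, 4 and 9 and at 184 and 178 TPM in the epithelial-like and mesenchymal-like cultures. The density ratio was -0.02 (-0.25 to 0.21) and turned to 0.26 when centred on the germ-cell list, so its direction depends on the scaling. Over the fractions from GFP-low to GFP-high Crabp1 was at 161, 281 and 411 TPM, with 460, 1223 and 1240 counts. This is the order of the label, as for Rarg, and the log2 ratio of high to low was 1.18 (1.03 to 1.35), or 2.28-fold. With DMSO and 0.5, 1 and 2 µM UNC0638 it was at 254, 296, 282 and 341 TPM, and the 2 µM ratio was 0.46 (0.29 to 0.65).

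Between GFP-low and GFP-high the somatic markers did not move in 1 direction. All 13 macrophage markers were at least 2-fold lower in GFP-high, with a median log2 ratio of -2.89, and 8 of the 19 fibroblast markers that passed the filter were at least 2-fold higher, with a median of 0.66. The part of other cells' RNA in the Crabp1 and Rarg differences was not tested. In GFP-mid against GFP-low, with macrophage sums of 629 and 659 TPM, the Crabp1 ratio was 1.68-fold (log2 ratio 0.74, 0.59 to 0.91).

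Crabp2, which carries retinoic acid to the receptors in the nucleus, had the largest difference between the density cultures among the 7 members that passed the filter. It was at 4.53 TPM (10 counts) in the epithelial-like culture and 34.2 TPM (75 counts) in the mesenchymal-like culture, 7.72-fold higher, with a log2 ratio of 2.51 (interval without the pseudocount 1.99 to 4.07). It was at 9.04, 17.8 and 18.4 TPM in GFP-low, GFP-mid and GFP-high, which grew at the same Matrigel density as the mesenchymal-like culture. At days 0, 4 and 9 Crabp2 was at 52.5, 47.9 and 39.1 TPM, the highest values of the gene apart from 40.8 TPM at 2 µM UNC0638, which lay between days 4 and 9. With DMSO and 0.5 and 1 µM it was at 22.8, 24.5 and 27.8 TPM, so the 4 inhibitor libraries stood in the order of the dose. The 2 µM ratio was 0.82 (0.37 to 1.40), and that at day 9 was -0.52 (-0.84 to -0.25).

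Fibroblast markers, more than other somatic lists, moved with Crabp2 in the density experiment. Of 19 fibroblast markers 18 were at least 2-fold higher in the mesenchymal-like culture, with a median log2 ratio of 4.62. The peritubular myoid list (6 genes) went from 3.61 to 238 TPM, mostly through Acta2 (164 TPM in the mesenchymal-like culture) and Tagln (69.3 TPM). Of the 4 myoid markers that passed the filter, 3 were at least 2-fold higher and 1 had a ratio below 0. Of 13 macrophage, 6 Sertoli and 4 endothelial markers that passed it, 2, 2 and 0 were at least 2-fold higher. Which cells held these transcripts, and the part of somatic RNA in the Crabp2 levels, were not tested. At 2 µM UNC0638 Crabp2 was higher than with DMSO, and 15 of 19 fibroblast markers were at least 2-fold lower and their sum went from 1822 to 554 TPM. At day 0 the fibroblast sum was 183 TPM and Crabp2 was at 52.5 TPM.

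**Figure D4:**
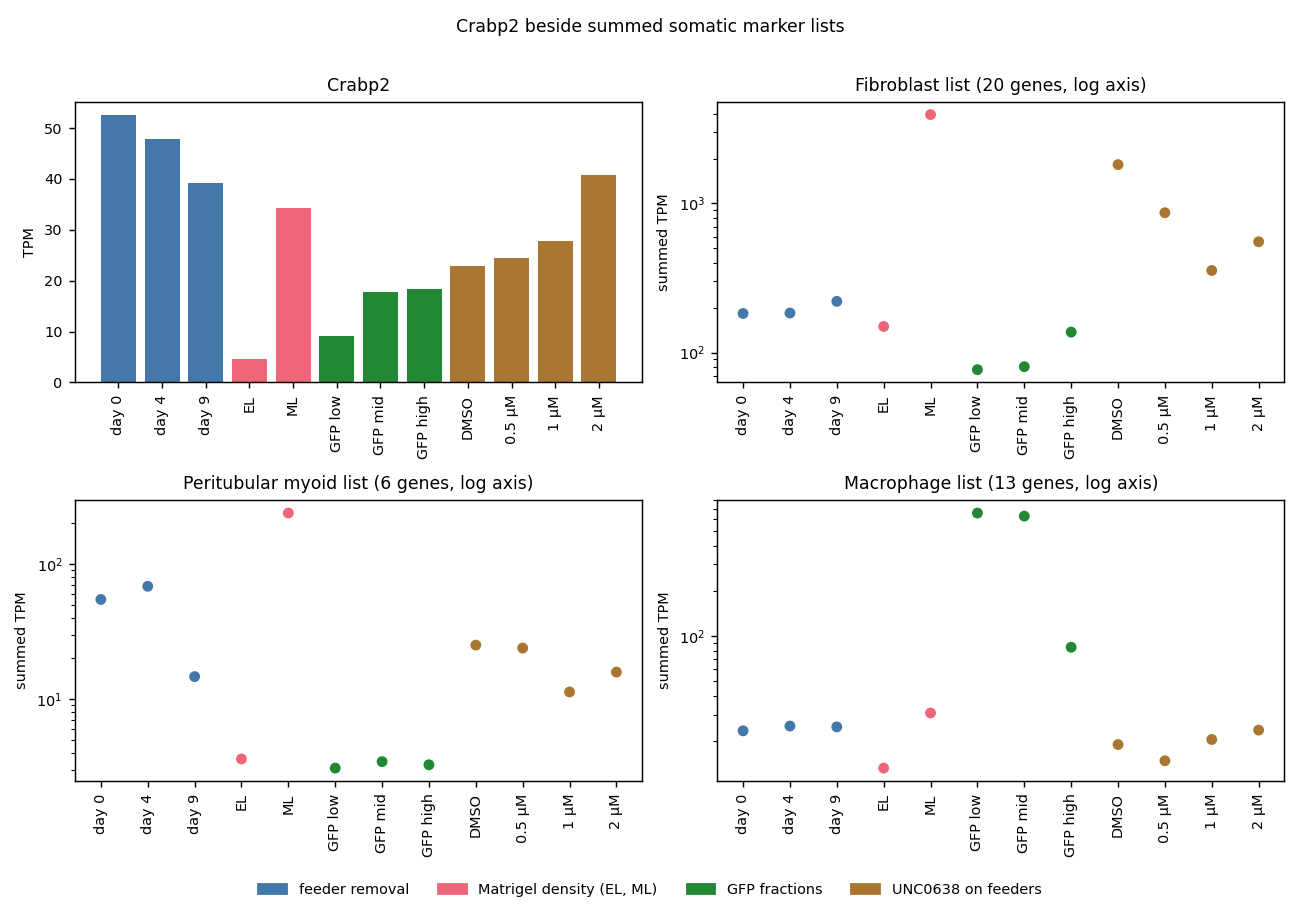
Crabp2 in TPM (upper left, from 0) beside the summed TPM of the fibroblast, peritubular myoid and macrophage lists (log axes) in the 12 libraries. Crabp2 and the fibroblast sum are both higher in ML than in EL (34.2 against 4.53 TPM, 3943 against 150 TPM), and from DMSO to 2 µM UNC0638 Crabp2 goes from 22.8 to 40.8 TPM and the fibroblast sum from 1822 to 554 TPM.

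By the root mean square difference of log2(CPM + 1), centred within each experiment over the 12 libraries, the genes with the pattern most like Crabp2 were Arl8a (0.11), Micall2 (0.15) and Scrn1 (0.16), where the median of 12449 candidate genes was 0.63. Arl8a was at 1.99 and 18.9 TPM in the epithelial-like and mesenchymal-like cultures and at 5.83 and 12.1 TPM with DMSO and 2 µM UNC0638. For Crabp1 the nearest genes were Usp49 (0.078), Nab2 (0.079) and Rabep2 (0.085), with a median of 0.33. Usp49 was at 5.78, 11.9 and 15.0 TPM from GFP-low to GFP-high.

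Aldh1a2, the main retinaldehyde dehydrogenase of the embryo, was at 32.2, 39.3 and 43.6 TPM at days 0, 4 and 9, with log2 ratios to day 0 of 0.27 (0.07 to 0.48) and 0.31 (0.12 to 0.52). It was at 22.4 and 19.3 TPM in the epithelial-like and mesenchymal-like cultures, a ratio of -0.16 (-0.54 to 0.20), which turned to 0.13 when centred on the germ-cell list. From GFP-low to GFP-high it was at 28.7, 27.4 and 37.6 TPM. With DMSO and 0.5, 1 and 2 µM UNC0638 Aldh1a2 was at 30.6, 27.6, 31.1 and 22.8 TPM, and the 2 µM ratio was -0.37 (-0.71 to -0.05). No Aldh1a2 ratio reached 2-fold.

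Cyp26a1, the degrading enzyme most directly induced by retinoic acid, split the series. It had 42 and 22 counts (9.10 and 4.74 TPM) in the epithelial-like and mesenchymal-like cultures and 33, 43 and 37 counts (4.22, 3.63 and 4.46 TPM) in GFP-low, GFP-mid and GFP-high. In the 7 libraries of the feeder-removal and inhibitor experiments it had 0 to 6 counts, or 0 to 0.91 TPM. The 2 sets did not overlap, and the low set held the day 4 and day 9 cultures on Matrigel as well as the 5 cultures on MEF. Since each experiment may have been its own batch, culture condition and batch cannot be told apart here. Within the density experiment the mesenchymal-like culture was lower (log2 ratio -0.78, -1.71 to -0.11), and across the GFP fractions no difference was detectable (GFP-high to GFP-low -0.06, -0.79 to 0.65).

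Cyp26b1, which somatic cells of the fetal testis use to shield germ cells from retinoic acid, had 19 counts in the mesenchymal-like culture (1.62 TPM) and 0 in the epithelial-like culture, at least 6.51-fold higher against a floor of 3 counts in the latter library. Beside it stands the fibroblast sum of 3943 TPM in the mesenchymal-like culture, and the part of somatic RNA was not tested. The other 10 libraries had 0 to 5 counts, at most 0.24 TPM. This includes the DMSO library with 2 counts, where the fibroblast sum was 1822 TPM. The GFP fractions from the same Matrigel density had 0, 4 and 5 counts.

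The DMSO and day 0 libraries, both from cells on MEF without inhibitor, show how far levels differed between experiments. Their fibroblast markers differed too, with 18 of 19 at least 2-fold higher with DMSO, a median log2 ratio of 3.02 and sums of 1822 and 183 TPM, and the part of somatic RNA in the differences below was not tested. Of the 7 members 3 were called between them, where 19.4% of all genes were (12.2% higher, 7.22% lower): Rara (2.58-fold higher with DMSO, log2 ratio 1.32, 1.04 to 1.71), Rarg (3.54-fold higher, 1.75, 1.48 to 2.18) and Crabp2 (0.434-fold, -1.13, -1.67 to -0.76). Rxra was 1.504-fold higher, and Crabp1 and Aldh1a2 had ratios of 0.13 (-0.05 to 0.30) and -0.07 (-0.34 to 0.19). Cyp26a1 had 3 counts with DMSO and 0 at day 0 and could not have been called lower, so the count of calls rests on the other members. Differences of members between experiments, such as that of Rara above, should be read against these values. For the Cyp26a1 difference between experiments, this pair of libraries gives no such measure.

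The rest of the pathway was followed in a list of 28 other genes of retinoid transport and metabolism, of which 15 passed the filter. None of the 15 was at least 2-fold different at day 4 or day 9 (2.28% and 2.6% of all genes), although Aldh1a1, Aldh1a7 and Lpl, with 5, 1 and 5 counts at day 0, could not have been called lower. In the mesenchymal-like culture 5 were higher and none lower, where 10.7% and 1.78% of all genes were, with a median log2 ratio of 0.06. They were Aldh1a1, which like Aldh1a2 oxidises retinaldehyde, with 0 and 59 counts (at least 20.2-fold), Aldh1a7, a near relative, with 0 and 8 counts (at least 2.74-fold), the reductases Dhrs4 (1.86) and Rdh11 (1.01), and Lpl with 0 and 12 counts (at least 4.12-fold). With 0 counts in the epithelial-like culture, Aldh1a1, Aldh1a7 and Lpl could not have been called lower in this comparison. Nor could Bcmo1 and Dhrs4, with 3 and 4 counts there. The mesenchymal-like culture had the fibroblast sum of 3943 TPM, and its part was not tested.

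At 0.5, 1 and 2 µM UNC0638, 1, 2 and 4 of the 15 genes were at least 2-fold lower and none higher, with medians of -0.09, -0.46 and -0.21. Of all genes 2.13%, 4.12% and 3.59% were lower. Bcmo1, at 4 counts with DMSO, could not have been called lower. Aldh1a1 was at 6.36 TPM with DMSO and at 6.77, 1.63 and 1.53 TPM with rising dose. Aldh1a3, the third enzyme of the family, was at 8.39, 6.14, 5.34 and 3.12 TPM, with a log2 ratio of -1.26 at 2 µM (-2.06 to -0.75). Retsat, retinol saturase, was at 36.0, 24.4, 22.0 and 16.6 TPM (-1.04 at 2 µM, -1.47 to -0.70), and Lpl was lower at each dose. Over these libraries the fibroblast sum was 1822, 867, 355 and 554 TPM, and its part in these differences was not tested.

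In GFP-high against GFP-low 1 of the 15 was at least 2-fold higher and 2 were lower (6.94% and 2.59% of all genes), with a median log2 ratio of -0.21 over the list. In GFP-mid against GFP-low 1 was lower (0.685% of all genes) and none higher, with a median of 0.18. Aldh1a1, Aldh1a7 and Bcmo1, with 4, 2 and 6 counts in GFP-low, could not have been called lower in either comparison. Aldh1a3 was at 13.7, 4.69 and 1.99 TPM from GFP-low to GFP-high, with 220, 114 and 34 counts, and its ratio of high to low was -2.63 (-3.50 to -2.41). Lpl was also lower in GFP-high (-1.29). The macrophage sums of these fractions were 659, 629 and 84.3 TPM, and the part of macrophage RNA in these differences was not tested.

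Genes known to respond to retinoic acid were followed in a list of 24, of which 22 were in the tables and 16 passed the filter. Against day 0 none was at least 2-fold different at days 4 and 9 (2.28% and 2.6% of all genes; medians -0.03 and 0.11). In the mesenchymal-like culture 2 were higher, Tgm2 (3.63) and Bhlhb2 (2.41), and none was lower, where 10.7% and 1.78% of all genes were (median -0.04). The fibroblast sum of 3943 TPM stands beside these 2 as well, and its part was not tested. In GFP-mid 1 was lower, Bhlhb2 (0.685% of all genes; median 0.09). In GFP-high 3 were higher, Stra8 and Kit among them, and 2 were lower, Msx2 (-1.02) and Bhlhb2 (-1.69), where 6.94% and 2.59% of all genes were (median 0.04). All 13 macrophage markers were also at least 2-fold lower there, and their part was not tested. At 0.5, 1 and 2 µM UNC0638, 4, 3 and 2 were lower and none higher, where 2.13%, 4.12% and 3.59% of all genes were lower (medians -0.39, -0.61 and -0.35). At these doses 13, 19 and 15 of 19 fibroblast markers were also at least 2-fold lower, and their part was not tested. The homeobox gene Msx1 was lower at every dose, at 8.53 TPM with DMSO and 3.14, 2.50 and 3.44 TPM.

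Stra8, the gene that retinoic acid induces before meiosis, was at 83.5, 173 and 247 TPM in GFP-low, GFP-mid and GFP-high, the same order as Rarg and Crabp1. Its log2 ratio of high to low was 1.40 (1.27 to 1.55), while Cyp26a1 was alike in these 3 fractions. Kit, the receptor that marks differentiating spermatogonia, was at 20.1, 25.02 and 46.5 TPM (1.05, 0.91 to 1.21). With DMSO and 0.5, 1 and 2 µM UNC0638 Stra8 was at 37.9, 15.7, 21.3 and 22.1 TPM, so that all 3 doses were below DMSO and only 0.5 µM reached 2-fold (-1.20, -1.70 to -0.84). In the feeder-removal libraries, where Cyp26a1 had 0 to 6 counts, Stra8 was at 49.6, 52.1 and 60.0 TPM. In the epithelial-like and mesenchymal-like cultures, with 42 and 22 counts of Cyp26a1, it was at 72.5 and 50.2 TPM. The library with most Cyp26a1 (epithelial-like) and that with most Stra8 (GFP-high) were thus different ones.

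**Figure D5:**
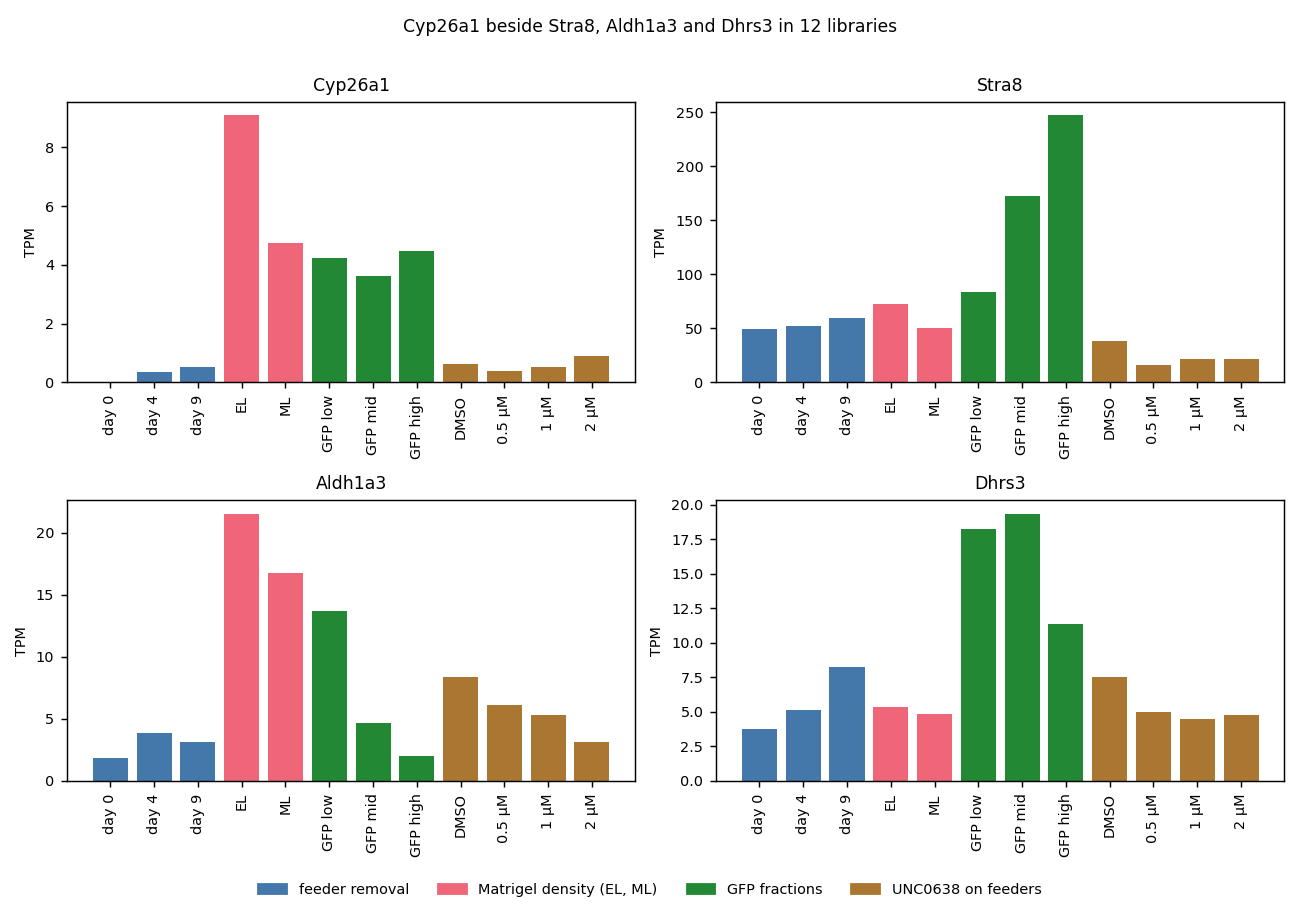
Cyp26a1, Stra8, Aldh1a3 and Dhrs3 in TPM (vertical axes, each from 0) in the 12 libraries, coloured by experiment. Cyp26a1 is highest in EL (9.10 TPM) and nearly level over the GFP fractions, Stra8 goes from 83.5 to 247 TPM over those fractions, and Aldh1a3 goes from 13.7 to 1.99 TPM.

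Dhrs3, a retinaldehyde reductase that retinoic acid induces, was at 18.2, 19.3 and 11.3 TPM in GFP-low, GFP-mid and GFP-high and at 3.74 to 8.26 TPM in the other 9 libraries. The sets did not overlap. The macrophage list was also highest in the GFP libraries, and its part in the Dhrs3 level was not tested. Cyp26a1 was above 3 TPM in the same 3 libraries, and also in the epithelial-like and mesenchymal-like cultures, where Dhrs3 was at 5.35 and 4.84 TPM.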

How the data were processed

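RNA sequencing of 12 libraries, 1 per group, was analysed, and the 4 ATAC-seq libraries were not used here. Libraries were made by a modified Smart-seq2 procedure, per the labels' protocols. Trim Galore, RSEM and build mm10 are named in the submitters' processing notes, while the aligner and the annotation release are not given in the sources used here. The deposited expected counts are RSEM estimates that the authors did not normalize, per the file headers. The deposited TPM were scaled by the authors to effective gene length and a fixed sum per library, per the file headers. TPM was used for levels.

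For ratios the expected counts were rounded and scaled to CPM with TMM factors (edgeR 4.0.16, R 4.3.3; 0.912 to 1.07). The compared genes had means of 1 CPM or more over the 12 libraries, and log2(CPM + 1) was used, with a call at 2-fold. For each ratio a 95% Clopper-Pearson interval was taken from how its reads divide between the pair of libraries, without the pseudocount. Zero counts allow up to 3 counts. The reads were amplified and carried no molecular identifiers, so they are not independent molecules. The steps were run on simulated, independent counts with planted changes in higher-count genes only. That run does not bear on amplified reads or on genes with few counts. The comparison unit was the library, no condition was tested, and a trend over the 4 inhibitor libraries was not fitted.

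The 9 members and the lists (other retinoid genes, nuclear receptor partners, coregulators, retinoic acid-responsive genes, germ-cell and somatic markers) were chosen with earlier results of these data known. All members and any listed gene could be named, as could the 3 genes nearest to a member whose log2 range within an experiment was at least 1, among genes with at least 50 counts in their highest library. Alternatives were a pseudocount of 0.1 or 5, dropping the filter or raising it to 10 CPM, scaling by DESeq2 (1.42.0) or by library totals, using deposited TPM, and centring on the germ-cell list. Promoter windows and gene positions are from RefSeq on GRCm38.p6, the assembly that mm10 denotes, and all 9 symbols matched. Scripts ran in Python 3.11.15 (scipy 1.17.1, pandas 2.3.3, numpy 2.4.6) and figures were drawn with matplotlib 3.10.9. Values of some listed genes are not reported here.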

Additional observations from a re-analysis of the deposited data

How the results depend on the processing

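The number of members called moved in 5 of the 8 comparisons. GFP-high against GFP-low had 2 in place of 1 with total counts, with the deposited TPM, with a pseudocount of 0.1 and when centred on the germ-cell list, since Rarg then passed 2-fold beside Crabp1. UNC0638 at 2 µM had 1 in place of 0 when centred on the germ-cell list (Crabp2, 1.00). Days 4 and 9 each had 1 in place of 0 with a pseudocount of 0.1 (Cyp26a1, 4 and 6 counts against 0). The density comparison had 3 in place of 1 without a filter (Rarb and Cyp26b1 added). Under the settings other than the filters, which leave a ratio as it is, 332 of 336 recomputed member ratios stayed within their counting interval (widened, where needed, to hold the reported ratio). The 4 that moved were all in the density comparison, Crabp2 to 1.65 with a pseudocount of 5 and Crabp1, Rara and Rxra to 0.26, 0.33 and 0.37 when centred on the germ-cell list. The sign turned in 12, none of them called and 7 of them with that centring. With pseudocounts of 5 and 0.1 the share of all genes called ran from 0.119% to 7.21% at day 4, 0.21% to 7.17% at day 9, 7.02% to 17.3% in the density comparison, 1.27% to 8.86% in GFP-mid, 3.64% to 15% in GFP-high, and 0.531% to 8.17%, 2.11% to 11.6% and 1.59% to 12.2% at the 3 doses. Centring on the germ-cell list moved the median of all genes by most in the density comparison, from -0.06 to 0.23. Members with fewer than about 50 counts (Rarb, Cyp26a1, Cyp26b1 and Crabp2 in the epithelial-like and GFP-low libraries) are limited by depth. No paired analysis was possible because each RNA group had 1 library.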

Other observations

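Among 20 nuclear receptors that share partners or sites with the retinoid receptors, 14 passed the filter. At least 2-fold differences were 1 higher at day 4 (Ppard, 1.25% of all genes higher) and 1 lower at day 9 (Nr1h3, 0.979% of all genes lower), with medians of 0.37 and 0.33. The mesenchymal-like culture had 1 higher (Nr2f2, 0 and 23 counts, 10.7% of all genes, median 0.03), and 18 of 19 fibroblast markers were higher there, whose part was not tested. GFP-mid had 1 higher (Thra) and GFP-high 2 (Thra and Rxrg), where 3.38% and 6.94% of all genes were higher (medians 0.17 and 0.29). In GFP-high all 13 macrophage markers were at least 2-fold lower and 8 of 19 fibroblast markers higher, and their part was not tested. At 0.5, 1 and 2 µM UNC0638, 0, 1 and 3 were lower, where 2.13%, 4.12% and 3.59% of all genes were (medians -0.19, -0.12 and -0.14). The 3 at 2 µM were Rxrg, Nr2f2 and Nr2c1, and 15 of 19 fibroblast markers were lower there too, whose part was not tested. Rxrg, a retinoid X receptor with a restricted expression, was at 2.58, 4.36 and 8.56 TPM in GFP-low, GFP-mid and GFP-high (log2 ratio 1.32, 0.92 to 2.28), the order that Rarg and Crabp1 followed, whereas Rxra was at 15.9, 19.4 and 18.0 TPM. At 2 µM UNC0638 Rxrg was at 1.84 TPM against 4.95 TPM with DMSO (-1.09, -2.58 to -0.31). Vdr, the vitamin D receptor, was at 12.4 to 18.0 TPM in the feeder-removal libraries and at 0.96 to 4.98 TPM in the other 9, opposite to Rara.

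Of 14 receptor coregulators, all of which passed the filter, Ncoa1 was at least 2-fold higher at day 4 (log2 ratio 1.11), at day 9 (1.40) and at 2 µM UNC0638 (1.06), where 1.25%, 1.62% and 3.42% of all genes were higher. Nrip1 was lower at 0.5 µM (-1.97), as were 2.13% of all genes. Ncoa1 had at most 37 counts in any library and Nrip1 at most 26, so the calls of both genes rest on few reads. In GFP-high 1 coregulator was higher (6.94% of all genes), and none was called in the density comparison, in GFP-mid or at 1 µM (12.5%, 4.07% and 6.71% of all genes). The macrophage and fibroblast markers given above for GFP-high, and the 13 and 15 of 19 fibroblast markers lower at 0.5 and 2 µM, stand beside these calls too, and their part was not tested.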
